A study of Mus musculus with 4 samples.

Results

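Ras proteins are small GTPases that relay receptor signals to the Raf-MEK-ERK kinase cascade. Here 8 genes of this switch were followed in liver group 1 innate lymphoid cells (ILC1s). The cells were labelled WT or knockout for Cd200r, the gene of the inhibitory receptor CD200R. The 8 genes were picked by name for their role, with earlier results of these data known. They are the GTPase gene Nras, the RasGAP genes Rasa1, Rasa2, Rasa3, Rasal3 and Nf1, and the activator genes Rasgrp1 and Sos1. All 8 were found among the 18804 genes of the deposited table, and 6 of them reached the mean of 1 FPKM (fragments counted per kilobase of gene and scaled to library size) needed for testing. Nf1 and Sos1 did not.

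ILC1s are liver-resident relatives of natural killer (NK) cells that carry cytotoxic granules. The libraries came from mice aged 5 to 8 weeks at homeostasis, with 2 libraries labelled Cd200r knockout (replicates 1 and 2) and 2 labelled WT (replicates 1 and 3). The labels give no strain, no design of the knockout allele and no word on whether a library is 1 mouse or a pool, so the spread between replicates may be technical. The sources used here do not say how the cells were sorted.

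A Ras protein is active while it holds GTP. Guanine nucleotide exchange factors such as SOS1 and the diacylglycerol-responsive RASGRP1 load it with GTP, and GTPase-activating proteins (RasGAPs) make it hydrolyse the GTP and switch off. CD200R has no immunoreceptor tyrosine-based inhibitory motif. Once engaged by CD200 it binds the docking protein DOK2, which brings in the RasGAP encoded by Rasa1, and so dampens Ras. The comparison asks whether their transcripts differ between the genotypes. Signalling through the proteins was not measured.

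No RasGAP, activator or Ras GTPase gene among the 6 tested differed between the genotypes at an adjusted p of 0.05 (limma, Benjamini-Hochberg over 9476 genes). The count was 0 higher and 0 lower, against a background of 3.33% of all tested genes in either direction, 2.4% higher and 0.939% lower in knockout, so that 0 of 6 is close to the background. At an unadjusted p under 0.05, 2 of the 6 were found, Rasa3 on the higher and Rasal3 on the lower side, where 15.5% of all tested genes (1468 of 9476) were. What set these genes apart was their level. Rasal3 alone held most of the RasGAP transcript, while Sos1 and Nf1 were at less than 1 FPKM in all 4 libraries. Both are low for genes used in many cell types, and how reads were counted over them could not be checked without reads, so these 2 levels are those of the deposited table only.

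Summed FPKM, which is already scaled to library size, ran from 511415 to 523717. Low values of single-exon genes moved in steps that put the counted reads at about 39100000 to 41500000 per library, so that 1 FPKM stands for about 39.1 to 41.5 reads per kilobase. Cd200r1, which encodes CD200R, was at 110.7 and 103.7 FPKM in knockout and 161.5 and 173.3 FPKM in WT, reduced but not absent. Of 12 ILC1 markers all were detected, and their summed level was 4608 and 4720 FPKM in knockout and 4851 and 5051 FPKM in WT. That sum is mostly Ncr1, Cxcr6, Klrb1c and Cd160, and single markers differed. Gpr183 (2.30-fold) and Tmem176b (1.37-fold) passed as higher and Cd200r1 as lower in knockout. Over all tested genes, 24.3% were higher and 21.7% lower in knockout with no overlap between groups. Of the 12 ILC1 markers, 5 were higher and 4 lower in this way, with Cd200r1 among the 4. Itga1, among the lower ones, was at 42.2 and 32.8 FPKM in knockout and 48.3 and 53.0 FPKM in WT (limma, adjusted p = 0.138). Markers of other cells also moved with genotype. Of 9 tested conventional NK markers 7 rose (summed level 252.5 and 552.0 FPKM in knockout, 95.5 and 91.4 in WT) and of 9 tested macrophage markers 6 rose (617.1 and 917.2 against 234.7 and 219.3). All 7 erythroid markers fell (12483 and 14026 against 24710 and 26810). Of 6 hepatocyte markers 1 rose, Fgb (1.85-fold, adjusted p = 0.0070), and all 6 had a positive log2 fold change (296.5 and 327.5 against 186.3 and 260.2). Among 6 T cell markers 0 passed, and 4 had an unadjusted p under 0.05 (limma). Cd3e (1.65-fold, adjusted p = 0.0518), Cd3d (1.61-fold, adjusted p = 0.0713) and Cd5 (1.83-fold, adjusted p = 0.217) were higher in both knockout libraries than in both WT libraries. Cd3g, at a high level in all libraries, was lower in both knockout libraries (0.876-fold). No marker of these 5 lists was at 0 in any library. The part of these cells in the levels below was not tested, and in bulk RNA fewer cells of a type and less RNA per cell cannot be told apart.

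**Figure D1:**
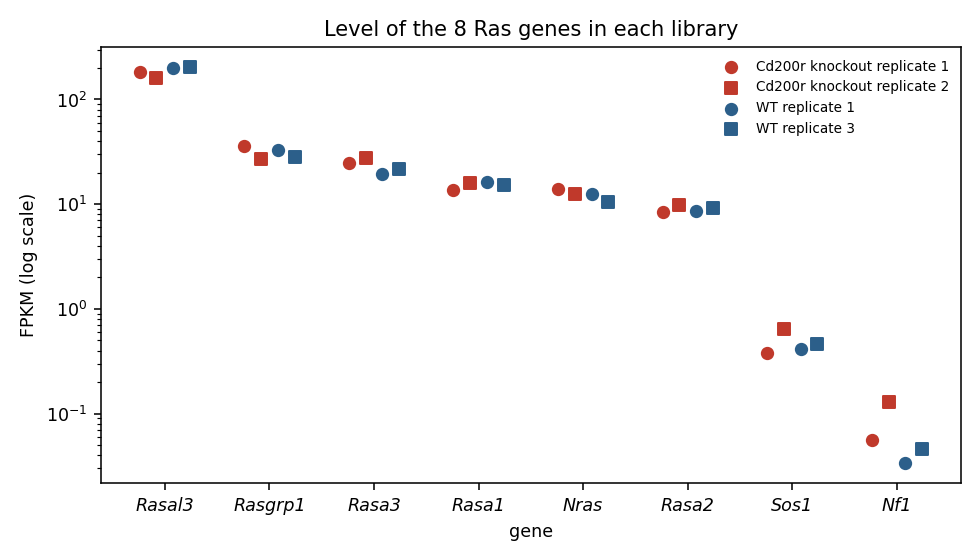
FPKM (log axis) of the 8 Ras genes in each of the 4 libraries, ordered by mean level, with knockout in red and WT in blue. Rasal3 lies between 160.0 and 203.4 FPKM, 5 genes lie between 8.45 and 36.1 FPKM, and Sos1 and Nf1 lie under 1 FPKM.

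By mean level over the 4 libraries the order was Rasal3, Rasgrp1, Rasa3, Rasa1, Nras, Rasa2, Sos1 and Nf1. FPKM is scaled to gene length, so the levels of different genes can be set side by side, but only roughly. The lowest members, Rasa2, Sos1 and Nf1, also have the most annotated exon (15.86, 10.59 and 15.85 kb). The other members have 4.90 to 7.32 kb. How evenly the amplification covered long transcripts was not tested, so level and length cannot be told apart in this order. The ranges of Rasgrp1 and Rasa3 over the 4 libraries overlapped, as did those of Rasa1 and Nras, and those neighbours are not ordered beyond their spread. All other neighbours in the order had separate ranges. The largest step was between Rasa2 and Sos1, with an 18.9-fold ratio of means.

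Rasal3 encodes a RasGAP found mainly in blood cells. It lies on chromosome 17 (32390659 to 32403582, GRCm38.p6, minus strand) and measured 184.3 and 160.0 FPKM in knockout replicates 1 and 2 and 197.7 and 203.4 FPKM in WT replicates 1 and 3. Both knockout values lay below both WT values, with replicate 2 the lower. Its mean level exceeded that of 97.9% of the genes in the table. All log2 fold changes here subtract WT from knockout, in units of log2(FPKM + 1). That of Rasal3 was −0.22 (SE 0.10), with a 95% interval from −0.43 to −0.01 that is not adjusted for the number of genes. The adjusted p was 0.293. In GENCODE M21, 13.0% of its exon bases also lie in an unnamed gene on the opposite strand, and the library kit does not mark strand, so reads from that stretch cannot be assigned to either.

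Rasa3 was the member with the smallest unadjusted p, at 0.0321. It encodes a GAP of the GAP1 family that acts on Ras and on the related GTPase Rap1, the switch of integrin adhesion. The gene (chromosome 8, 13567218 to 13677587, minus strand) measured 24.9 and 27.4 FPKM in knockout and 19.6 and 21.6 FPKM in WT. Both knockout libraries were above both WT libraries. The log2 fold change was 0.33 (SE 0.13, 95% interval 0.03 to 0.62) and the adjusted p 0.264. Among the 6 tested members 1 was higher and 1 lower in knockout with no overlap between groups, where 24.3% and 21.7% of all tested genes were.

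The nearest profiles to that of Rasa3 among 6276 other genes (those whose mean was 5 FPKM or more), by Euclidean distance of centred log2 values over 4 libraries, were those of Sap30, Nme1 and Selenos (distances 0.02, 0.03 and 0.04). Sap30, for example, measured 12.3 and 13.4 FPKM in knockout and 9.67 and 10.5 in WT.

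Rasa1 encodes p120 RasGAP, the GAP that DOK proteins bind through its SH2 domains. This gene (chromosome 13, 85214699 to 85289486, minus strand) measured 13.5 and 16.1 FPKM in knockout and 16.2 and 15.2 FPKM in WT. The low value was that of knockout replicate 1, and the groups overlapped. The log2 fold change was −0.08 (SE 0.15, 95% interval −0.42 to 0.26, adjusted p = 0.861). In folds, that interval spans 0.749 to 1.19 times WT.

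Rasa2, another GAP1 family gene whose loss is known to raise the sensitivity of T cells to antigen, was the lowest of the tested RasGAPs. It lies on chromosome 9 (96539300 to 96631612, minus strand). It measured 8.45 and 9.73 FPKM in knockout and 8.55 and 9.23 FPKM in WT. Each genotype had a lower and a higher library over nearly the same range. The log2 fold change was 0.03 (SE 0.17, 95% interval −0.35 to 0.41, adjusted p = 0.961).

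Nf1 encodes neurofibromin, the RasGAP lost in neurofibromatosis. Over its position on chromosome 11 (79339590 to 79581609, plus strand) the level was 0.0561 and 0.128 FPKM in knockout and 0.0333 and 0.0458 FPKM in WT. Both knockout values lay above both WT values, knockout replicate 2 the most, and the ratio of group means was 2.32. With 15.85 kb of annotated exon and the inferred depth, these values correspond to about 37 and 79 reads in knockout and 21 and 28 in WT, so the transcript was detected in every library at a very low level. Nf1 was below the filter. Fitted without a filter, its log2 fold change was 0.07 (SE 0.04) and the adjusted p 0.699, on a scale where adding 1 FPKM shrinks a change at this level.

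Together the 5 RasGAP genes summed to 231.3 and 213.3 FPKM in knockout and to 242.1 and 249.4 FPKM in WT. Both knockout sums were lower (exact two-sided permutation test over libraries, p = 0.333, the smallest that 2 against 2 allows). Rasal3 made up 79.7% and 75.0% of the sum in knockout and 81.7% and 81.5% in WT. The share of Rasa3 was 10.8% and 12.8% in knockout against 8.11% and 8.67% in WT. Rasa1 held between 5.86% and 7.53%, Rasa2 between 3.53% and 4.56%, and Nf1 at most 0.0598%. The ratio of Rasal3 to Rasa3, looked at after their values were seen, was 7.41 and 5.85 in knockout and 10.1 and 9.40 in WT. With Rasal3 lower and Rasa3 higher in both knockout libraries, this ratio had to separate the groups.

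**Figure D2:**
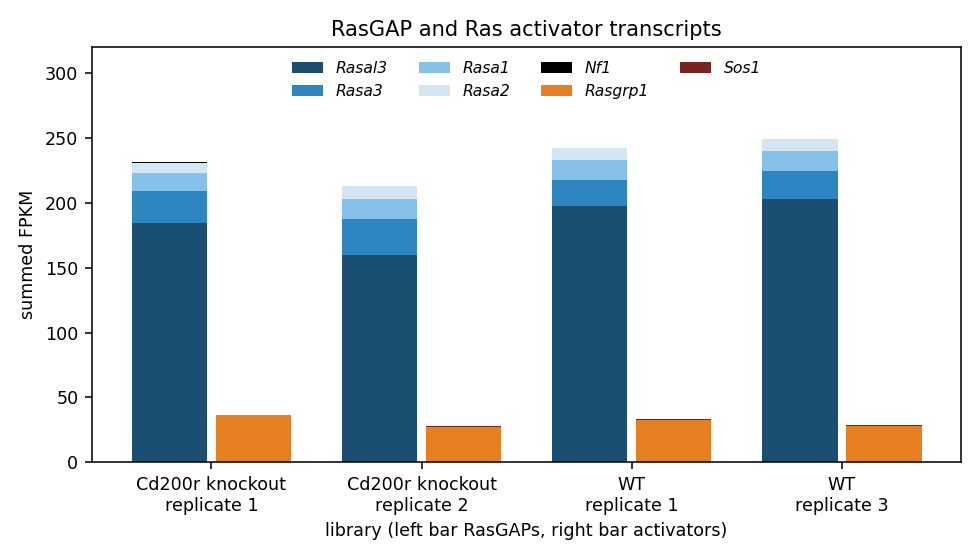
Summed FPKM of the 5 RasGAP genes (left bar) and of the 2 activator genes (right bar) in each library, split by gene. Rasal3 fills 75.0% to 81.7% of every RasGAP bar, and Nf1 and Sos1 are too small to be seen at this scale.

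Rasgrp1 was the main activator transcript among the members. It encodes the exchange factor that lymphocytes recruit to membranes through diacylglycerol after phospholipase C gamma is activated. The gene (chromosome 2, 117279983 to 117342877, minus strand) measured 36.1 and 27.2 FPKM in knockout and 32.7 and 28.2 FPKM in WT. The knockout libraries held both the highest and the lowest value, and the gap between them on the log2 scale (0.39) was wider than the difference between the groups. The log2 fold change was 0.05 (SE 0.15, 95% interval −0.29 to 0.38, adjusted p = 0.926).

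Sos1, the exchange factor brought to receptors by GRB2, was 42.2 to 95.6 times lower than Rasgrp1 in these libraries. From its locus on chromosome 17 (80393752 to 80480453, minus strand) came 0.378 and 0.645 FPKM in knockout and 0.418 and 0.461 FPKM in WT. The WT values lay between the knockout values. About 166 and 269 reads in knockout and 174 and 191 in WT stand behind them. Without a filter the log2 fold change was 0.06 (SE 0.12, adjusted p = 0.873). Its paralog Sos2 was higher in every library, at 3.74 and 2.57 FPKM in knockout and 3.91 and 3.27 FPKM in WT, 3.99 to 9.90 times the level of Sos1.

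The ratio of activator transcripts (Rasgrp1 and Sos1) to RasGAP transcripts was 0.158 and 0.131 in knockout and 0.137 and 0.115 in WT. The groups overlapped (exact two-sided permutation test, p = 0.667). Per length, RasGAP transcripts exceeded those of the activators in each library.

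Nras encodes the GTPase itself. It lies on chromosome 3 (103058285 to 103067914, plus strand) and measured 14.1 and 12.4 FPKM in knockout and 12.5 and 10.5 FPKM in WT. The groups overlapped, since knockout replicate 2 was just below WT replicate 1. The log2 fold change was 0.19 (SE 0.16, 95% interval −0.17 to 0.55, adjusted p = 0.641).

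Hras, which encodes a close relative of the same protein, measured 32.0 and 27.4 FPKM in knockout and 29.5 and 26.5 FPKM in WT. Nras was lower than Hras in each library. Over the coding bases of the first-numbered GENCODE transcript of each, both genes were 75.3% identical. The longest run of coding bases they share was 23. The sources used here give neither the read length nor the handling of reads with several matches. Hras did not pass (log2 fold change 0.08, SE 0.13, adjusted p = 0.841).

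The 6 tested members had a median log2 fold change of 0.04, beside 0.0033 over all 9476 genes tested, and 4 of the 6 were positive. Their values ran from −0.22 to 0.33. For Rasa1, Rasa2, Rasgrp1 and Nras the 95% interval held 0.

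**Figure D3:**
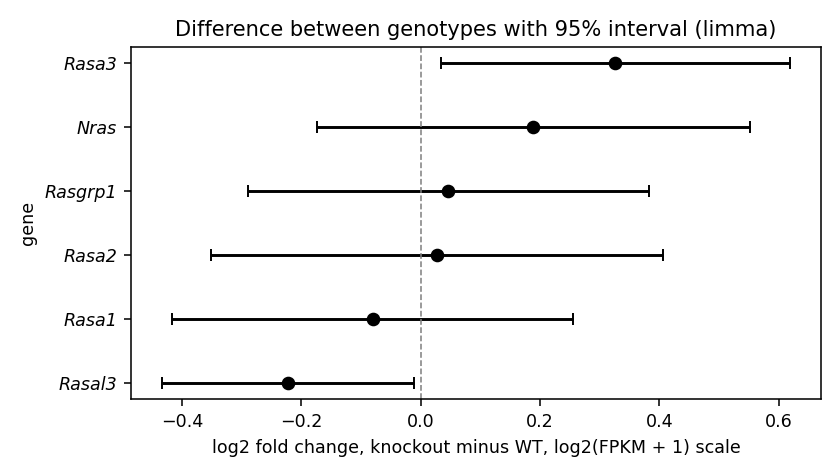
Log2 fold change, knockout minus WT, of the 6 tested members (points) with the 95% interval of limma (bars), not adjusted for the number of genes tested. The intervals of Rasa3 (0.03 to 0.62) and Rasal3 (−0.43 to −0.01) do not reach 0, and the other 4 do.

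The rest of the pathway was read from 7 lists of 99 further measured genes, of which 75 passed the filter on low values. Dusp5 rose and Plcg2 fell, and the other 73 did not pass, against the same background of 3.33%. The lists cover other Ras family GTPases, other GAPs, other activators, adaptors, lipid processing, the kinase cascade and ERK target genes.

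Among 12 tested GTPases of the Ras family 0 passed, with a median of 0.12, and 10 had a positive value. Rap1b, the Rap1 form of blood cells on which RASA3 acts, was the most abundant at 602.4 and 755.3 FPKM in knockout and 493.3 and 522.9 FPKM in WT. Both knockout values were higher. The log2 fold change of Rap1b was 0.41 (SE 0.11, adjusted p = 0.071), and it passed at a filter of 5 FPKM (adjusted p = 0.0499). It was 0.57 without knockout replicate 1 and 0.25 without knockout replicate 2, each leaving 1 knockout library. Over the alternatives that kept all 4 libraries, the adjusted p of Rap1b ran from 0.0499 to 0.450. Rheb, the GTPase that activates mTOR complex 1, had a log2 fold change of 0.25 (SE 0.11) and Ralb of 0.34 (SE 0.22), and neither passed.

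Of the other GAPs 5 of 12 were tested and 0 passed (median −0.18). Sipa1, a GAP for Rap1, came close to Rasal3 in level, at 156.3 and 113.0 FPKM in knockout and 162.4 and 150.0 FPKM in WT. The low library was knockout replicate 2. The log2 fold change of Sipa1 was −0.23 (SE 0.14, adjusted p = 0.463). It was −0.46 without knockout replicate 1 and 0.0020 without knockout replicate 2, each leaving 1 knockout library. Iqgap1 and Iqgap2, which encode scaffolds with a GAP-related domain, had −0.18 (SE 0.14) and 0.24 (SE 0.21).

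Among other activators 8 of 12 were tested and 0 passed (median −0.14). Rapgef1, which encodes an exchange factor for Rap1, had a log2 fold change of −0.45 (SE 0.23), Ralgds, an exchange factor for Ral, of −0.33 (SE 0.19), and Rasgrp2, an activator of Rap1, of 0.30 (SE 0.19). Rasgrp2 was at 6.36 and 6.47 FPKM in knockout and 5.29 and 4.79 FPKM in WT, well below Rasgrp1.

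Of 13 tested adaptors and proximal signalling genes 1 fell and 0 rose (median −0.08). Plcg2 encodes phospholipase C gamma 2, whose product diacylglycerol recruits RASGRP1. It was at 45.7 and 44.2 FPKM in knockout and 65.8 and 67.7 FPKM in WT, which is 1.49-fold lower in knockout, at a log2 fold change of −0.56 (SE 0.10) and an adjusted p of 0.014. The log2 fold change of Plcg2 was −0.59 without knockout replicate 1 and −0.54 without knockout replicate 2. It was −0.58 without WT replicate 1 and −0.54 without WT replicate 3, and the call was lost without either WT library. Each of these fits left 1 library in a group. Dok2, which encodes the docking protein between CD200R and RasGAP, was at 197.6 and 212.3 FPKM in knockout and 214.1 and 235.2 FPKM in WT (−0.13, SE 0.09), and Dok1 at 37.1 and 30.6 against 30.2 and 30.6 FPKM (0.15, SE 0.13). Neither of these passed.

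Genes for the lipid modification and transport of Ras gave 0 of 12 past the test (median 0.06). Fntb, the beta subunit of the farnesyltransferase that anchors Ras to membranes, was at 5.75 and 5.05 FPKM in knockout and 3.24 and 3.56 FPKM in WT (0.54, SE 0.20, adjusted p = 0.213). Icmt, the methyltransferase of the last step of that pathway, had a log2 fold change of −0.47 (SE 0.22), and Pggt1b, a subunit of the enzyme that attaches geranylgeranyl groups, of −0.36 (SE 0.23).

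In the Raf-MEK-ERK cascade 14 of 18 genes were tested and 0 passed (median −0.01). Lamtor3, a scaffold of the cascade, measured 70.4 and 71.6 FPKM in knockout and 60.1 and 59.6 FPKM in WT (0.24, SE 0.10). Ppp1ca, a phosphatase catalytic subunit, had 0.21 (SE 0.08). Neither of these passed.

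The ERK target list had 11 tested genes, of which 1 rose and 0 fell (median 0.05). Dusp5 encodes a nuclear phosphatase that is induced by ERK and inactivates it. It was at 72.7 and 56.4 FPKM in knockout and 25.9 and 32.4 FPKM in WT, 2.21-fold higher (log2 fold change 1.12, SE 0.15, adjusted p = 0.0032). At an unadjusted p under 0.05 (limma), 4 of the 11 were found, where 15.5% of all tested genes were. Dusp6, Spry2, Fos and Myc of this list were named after their values were seen. Dusp6, a related phosphatase gene, was at 75.5 and 62.1 FPKM in knockout and 87.2 and 96.0 FPKM in WT (−0.41, SE 0.12, adjusted p = 0.0999). Without knockout replicate 1, which left 1 knockout library, the log2 fold change of Dusp6 was −0.55. Spry2 was at 37.5 and 38.8 FPKM in knockout and 33.7 and 26.7 FPKM in WT (0.34, SE 0.13, adjusted p = 0.257). Fos, an immediate-early transcription factor, had 0.34 (SE 0.10, adjusted p = 0.103) and Myc 0.32 (SE 0.15, adjusted p = 0.338). Without knockout replicate 2, which also left 1 knockout library, Fos had 0.44 and Myc 0.55.

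**Figure D4:**
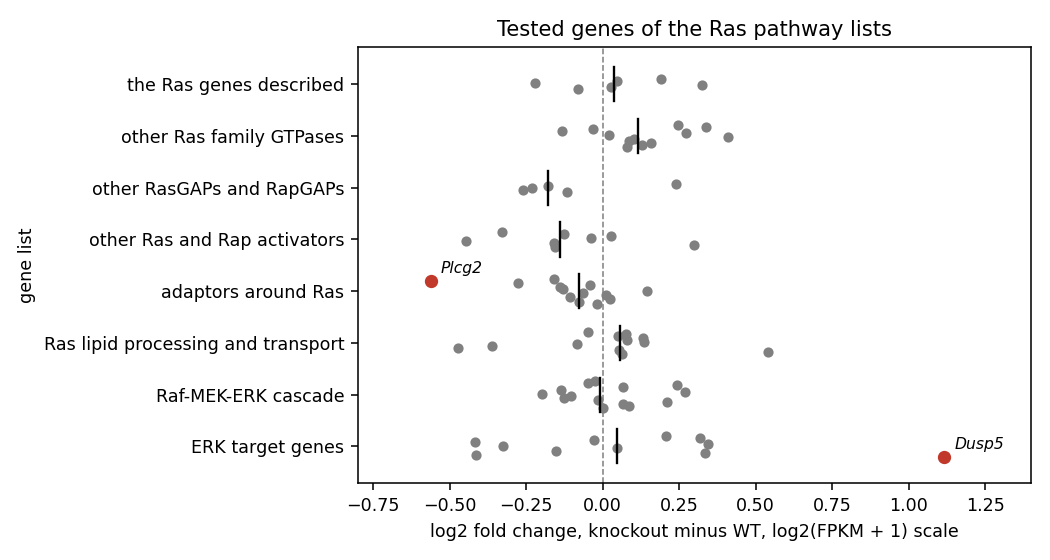
Log2 fold change, knockout minus WT, of each tested gene of the described genes and the 7 pathway lists (points), with the median of each list as a black bar and genes past the adjusted p of 0.05 in red. Dusp5 (1.12) and Plcg2 (−0.56) are the genes past the test.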

How the data were processed

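RNA was measured in 2 Cd200r knockout and 2 WT libraries of liver ILC1s. Per the labels' protocols, mRNA was amplified over its full length with a kit for single cells, and a transposase-based kit made the libraries. Tools, per the submitters' processing notes, included HISAT2, HTSeq, fastp, DESeq2 and R 3.2.0, with mm10 as the build and with no role or order given. The authors deposited FPKM values for 18804 genes, with no counts, so a count test was not run. Depth was inferred from 606 single-exon genes with RefSeq lengths, where 73.9% to 77.0% of values under about 6 reads lay within 0.05 of a whole read. Read numbers in the text use GENCODE exon lengths and are approximate.

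The 9476 genes whose mean reached 1 FPKM were fitted on the log2(FPKM + 1) scale with limma 3.58.1 (R 4.3.3, mean-variance trend, no covariate, two-sided), adjusted by Benjamini-Hochberg. The log2(FPKM + 1) scale understates the change of low genes. The fit was also run on 5 simulated sets with normal noise and its own fitted spread, so the sets share its assumptions. It recovered 84.6% of planted 2-fold and 100% of planted 4-fold changes, and 5.94% of calls were false. Changes were planted only in genes with a mean log2(FPKM + 1) above 2, so recovery in the lower tested genes is not known. Smaller changes were not simulated. Single values per library were compared with an exact permutation test (SciPy 1.17.1). There were 13 alternatives, covering pseudocount, filter, trend, scaling and each library left out. The members and lists were chosen with earlier results of these data known. Genes named beside the members are those past the test in each pathway list, otherwise the 3 with the smallest p, and Hras, Cd200r1, Dok1, Dok2 and the 3 genes nearest to the member of smallest p. Some genes that this rule names are not reported here. Sos2 was added as the paralog of Sos1. Coordinates are from RefSeq (GRCm38.p6), the assembly of mm10.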

Additional observations from a re-analysis of the deposited data

How the results depend on the processing

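No member passed under any of the 13 alternatives, of which Nf1 and Sos1 entered only that with no filter. Rasa3 kept a positive log2 fold change in all 13 (0.26 to 0.39) and Rasal3 a negative one (−0.32 to −0.12), with adjusted p from 0.164 and 0.0727 upward. Nras ranged from 0.07 to 0.31. With 1 library left out, Rasa1 ranged from −0.20 to 0.035, Rasa2 from −0.065 to 0.12 and Rasgrp1 from −0.15 to 0.24, so the direction of these 3 turned. The direction also turned for Hras (−0.029 without knockout replicate 1, otherwise up to 0.19) and Sipa1 (0.0020 without knockout replicate 2, otherwise down to −0.46). The median of the members ranged from 0.0073 to 0.089 over libraries left out. The count of all genes past the test was 316, but 0 with no filter (1898 at an unadjusted p under 0.05) and 70 without the mean-variance trend, and 256 to 574 with 1 library left out, the highest without knockout replicate 1. Of the pathway genes, 0 rose and 0 fell with no filter or without the trend, 2 rose at a filter of 5 FPKM, and with 1 library left out 1 to 3 rose and 0 to 3 fell. The causes were not tested. Where a group kept 1 library, that library was assumed to vary like the other group. No paired analysis was possible because the genotypes share only replicate number 1. Depth limits Nf1 most, at about 21 to 79 reads per library.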
